A study of Schizosaccharomyces pombe with 2 samples.

Results

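Poly(A) sites inside introns are places where an RNA was cut and polyadenylated within sequence that splicing would otherwise remove. They were taken as the positions of polyadenylated read ends on the sense strand of an intron of a protein coding gene, with no other gene on that strand there and no snoRNA in the intron. Positions within 24 nt of each other in 1 intron were gathered into 1 site, and a site needed 3 or more reads summed over both libraries. This gave 903 sites in the fission yeast Schizosaccharomyces pombe. Gathered over whole strands of the nuclear chromosomes, with no regard to introns, the same rule gave 53020 clusters. There, a site at an intron's edge can fall into a cluster with exonic positions, so the sites are not simply a part of these clusters. In the reference annotation, 902 of the 903 sites lie in introns with GT at the start and AG at the end. No site lies in an exon of another annotated transcript of its gene. Both describe the annotation and do not check the sites. The first or last 5 nt of an intron hold 119 of the sites, and 45 sites have fewer reads than the exons within 24 nt.

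The study sequenced the polyadenylated 3′ ends of total RNA from 1 nmt1-SEB1 culture and 1 wild-type culture, both in minimal medium with thiamine. In nmt1-SEB1, as its name says, the nmt1 promoter stands before seb1, and thiamine represses that promoter; its sample labels say knock-out where the series design says knockdown, so only the strain name is used here. Each group is 1 library, so no value below has a replicate check, and each comparison is of 2 libraries, not of 2 conditions. Intervals are 95% intervals that cover counting error only, and the labels describe no molecular identifiers on the reads. In such bulk RNA, fewer cells that use a site and fewer RNAs per cell cannot be told apart. The libraries held 3373116 and 2697953 nuclear reads in that order, so that 1 read equals 0.296 and 0.371 RPM, the reads in every 1000000 nuclear reads. The seb1 gene, from its annotated start to up to 1000 nt past its end, held 1848 reads in the wild-type library against 826 in nmt1-SEB1.

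Seb1 is an RNA-binding protein of the Nrd1 family that travels with RNA polymerase II and is known to act in the choice of poly(A) sites and in termination; its known RNA motif holds GUA. When polymerase makes an intron, splicing and 3′ end cleavage can compete for the same RNA. Cleavage within the intron leaves a short RNA that lacks the later exons, and if it is translated the reading frame usually runs into an intronic stop codon.

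Sequences of a few introns show what these sites look like. All sequences read 5′ to 3′ on the transcribed strand and are from RefSeq, build ASM294v3, at the deposited positions, which the submitters gave on ASM294v2; the base at the position was A in 92.1% of nmt1-SEB1 reads and 92.5% of wild-type reads. The first set holds whole short introns whose site was at least 2-fold higher in nmt1-SEB1, with the 2 bases at each end and the base of the site in capitals. They are rpb2 at chrI:850692-850729 (+), bos1 at chrI:1925274-1925345 (+), noc3 at chrII:3545803-3545847 (-) and pwi1 at chrIII:1032419-1032471 (-).
rpb2: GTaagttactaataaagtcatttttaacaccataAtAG
bos1: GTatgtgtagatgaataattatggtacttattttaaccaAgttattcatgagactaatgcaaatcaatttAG
noc3: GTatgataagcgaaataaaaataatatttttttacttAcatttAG
pwi1: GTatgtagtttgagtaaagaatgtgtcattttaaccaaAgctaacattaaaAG
In each of them the site lies in the later part of the intron, 4, 33, 8 and 15 nt before the first base of the next exon in that order.

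The second set shows whole introns whose site was at least 2-fold lower in nmt1-SEB1, with the same capitals. They are ftp105 at chrI:1788093-1788191 (+) and SPCC4F11.05 at chrIII:2010602-2010646 (+).
ftp105: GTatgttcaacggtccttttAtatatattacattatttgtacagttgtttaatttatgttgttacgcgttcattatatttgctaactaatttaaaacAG
SPCC4F11.05: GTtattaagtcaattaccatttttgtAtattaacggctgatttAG
Longer introns are shown as windows around the site, with capitals for the base of the site, for AATAAA or AATGAA in the 50 nt before it and for TGTA after it. The windows are gnd1 at chrII:231350-231469 (+), lower in nmt1-SEB1, spp41 at chrII:3327511-3327596 (+), higher, and adf1 at chrI:4825765-4825884 (-), which was neither.
gnd1: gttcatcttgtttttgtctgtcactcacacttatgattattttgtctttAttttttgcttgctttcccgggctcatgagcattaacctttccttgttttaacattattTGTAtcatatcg
spp41: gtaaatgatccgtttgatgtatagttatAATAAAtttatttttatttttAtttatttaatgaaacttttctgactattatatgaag
adf1: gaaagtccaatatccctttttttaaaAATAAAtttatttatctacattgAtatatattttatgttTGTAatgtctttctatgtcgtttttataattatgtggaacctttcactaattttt
The gnd1 site has a TGTA after it and no AATAAA or AATGAA before it, the spp41 site has AATAAA before it and no TGTA after it within the window, and the adf1 site has both.

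Intronic sites were a small part of all reads. They held 11000 reads in nmt1-SEB1, which is 0.326% of nuclear reads (Wilson interval 0.320 to 0.332), and 6709 reads in wild type, which is 0.249% (0.243 to 0.255). The ratio of the shares, nmt1-SEB1 over wild type, was 1.31 (exact binomial interval 1.27 to 1.35). Single genes moved this value: it was 1.60 without the sites of gnd1, 1.22 without those of pwi1 and 1.49 without both. Sites before a genomic A run, 6 A in a row or 7 A in 10 within the next 20 nt, moved it too. The 60 such sites held 1820 reads in nmt1-SEB1 against 250 in wild type, a ratio of 5.82 (5.10 to 6.67), while the other 843 sites held 9180 and 6459, a ratio of 1.14 (1.10 to 1.17). Without pwi1 the ratio at sites before A runs was 3.45, and without the 3 of them with the most nmt1-SEB1 reads it was 2.24 (1.93 to 2.60). Over all nuclear clusters the same ratio was 1.18 before A runs and 0.982 elsewhere. A read end before a genomic A run can come from priming inside the RNA, and the part of such priming in the result was not tested.

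The sites fell in 708 introns of 629 genes, out of 5193 eligible introns of 2446 genes. A single site lay in 583 introns, 2 sites in 85 and 3 or more in 40. Most sites were weak: 727 had 3 to 19 reads in all, 176 had 20 or more and 26 had 100 or more. At the limit of the definition, 210 sites had 3 reads, and 337 clusters with 2 reads fell just outside. Both libraries had reads at 544 sites, nmt1-SEB1 alone at 298 and wild type alone at 61, nmt1-SEB1 being the deeper library. With no read minimum, nmt1-SEB1 had reads at 3253 intronic positions and wild type at 1774. Thinned to the wild-type depth, nmt1-SEB1 had reads at 2843. The reads were unevenly spread, the 10 strongest sites of each library holding 39.7% of site reads in wild type and 25.6% in nmt1-SEB1.

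A site was called higher or lower where its RPM differed at least 2-fold and the exact interval of the ratio excluded 1, among the 176 sites with 20 or more reads. In nmt1-SEB1, 81 sites (46.0%) were higher, 36 (20.5%) were lower and 59 were neither. Beside this, 50.9% of all 16114 nuclear clusters tested in the same way were higher and 24.1% were lower, so both shares of the intronic sites were near the background. The median log2 ratio was 0.90 at intronic sites and 1.21 over all nuclear clusters. Clusters in coding sequence had 39.0% higher and 31.7% lower with a median of 0.38, and clusters past the stop codon had 19.7% higher and 43.2% lower with a median of -0.70. The share of higher calls at intronic sites thus lay between the share in coding sequence and that over all clusters, the share of lower calls was the smallest of these classes, and clusters past the stop codon had the opposite balance.

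**Figure D1:**
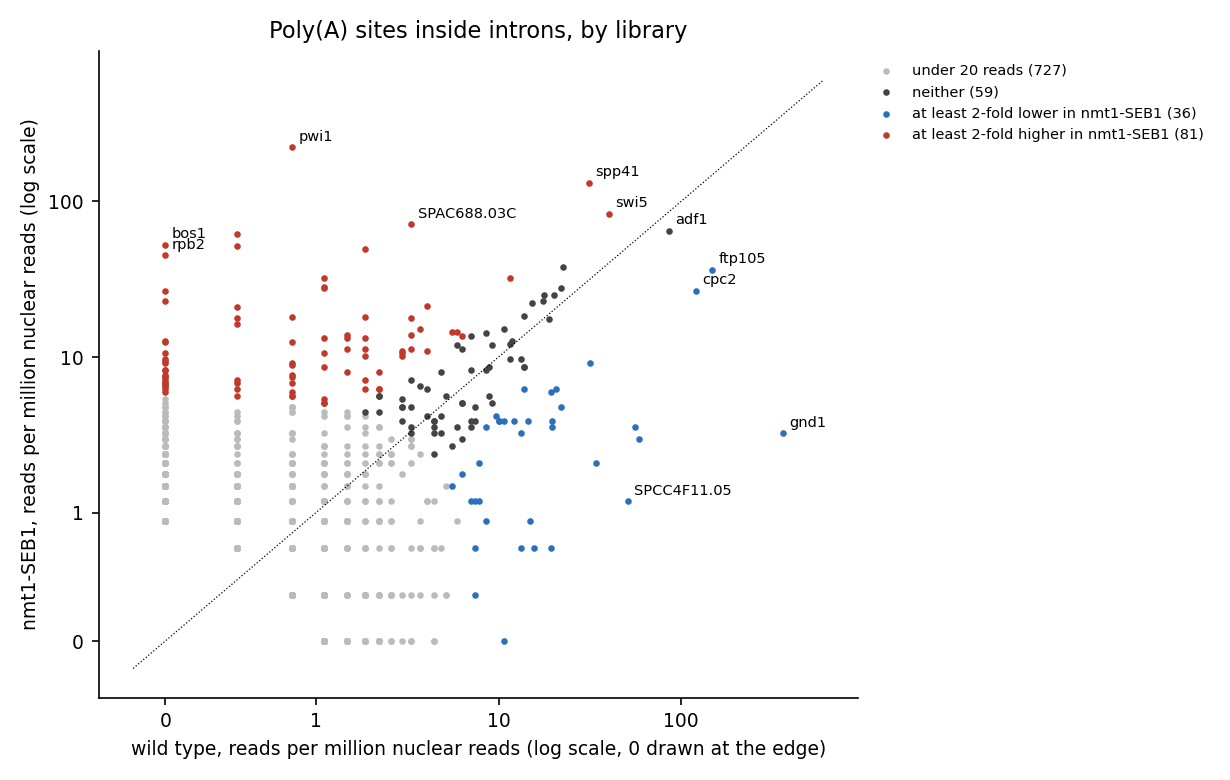
Each point is 1 of the 903 intronic sites, with its wild-type level on the x axis and its nmt1-SEB1 level on the y axis, both in RPM on a log scale with 0 drawn at the edge. Of the 176 sites with 20 or more reads, 81 are higher in nmt1-SEB1 and 36 are lower, and the site with the most reads is in gnd1 in wild type and in pwi1 in nmt1-SEB1.

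The level of a site also follows the level of its gene, so each site was set against all sense reads of its host gene, from the gene's start to 1000 nt past its end or to the next gene on the strand. Of 824 sites whose host had 20 or more reads in each library, 144 (17.5%) had a share at least 2-fold higher by odds ratio with an exact interval that excluded 1, and 96 (11.7%) had a lower one. For 4395 clusters in coding sequence the same call gave 12% higher and 15.9% lower, so intronic sites as a whole leaned to a larger share and clusters in coding sequence to a smaller one; the difference was not tested. The lean lay mostly at sites within 1000 nt past an upstream coding gene, with 22.6% higher and 7.64% lower. At the other sites it was 14.7% and 13.8%, a split chosen after the values were seen. Clusters in coding sequence were not split in this way. Of the 81 sites higher in level, 55 also had a higher share, 18 had neither call and 8 were not tested. Among the 36 lower sites, 27 also had a lower share, 8 had neither call and 1 was not tested. No site had opposite calls.

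The highest ratio with reads in both libraries was in the first intron of pwi1, which encodes a splicing coactivator. Its site, chrIII:1032433, 39 nt from the 5′ splice site, had 751 nmt1-SEB1 reads and 2 wild-type reads, a ratio of 300 (82.9 to 2485). The reads of the whole gene moved as well, from 48 in wild type to 3469 in nmt1-SEB1, and the site took 4.17% and 21.6% of them. Before the intron, the gene held 2431 reads in nmt1-SEB1 against 10 in wild type, so earlier ends in this gene were more numerous than those at the site. An A run follows the site.

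Sites in noc3 and bos1 had at most 1 wild-type read each. In noc3, a ribosome assembly factor gene, the site at chrII:3545810 had 207 reads against 1, a ratio of 166 (29.4 to 6571). It took 69.2% of 299 gene reads in nmt1-SEB1 against 3.33% (0.591 to 16.7) of only 30 in wild type. In bos1, a SNARE gene of vesicle transport, chrI:1925313 had 178 reads against 0, at least 47.5-fold higher with the wild type set at a floor of 3 reads. That bos1 site took 67.4% of 264 gene reads in nmt1-SEB1 while wild type had 0 of 54, a count that leaves room for up to 5.56%. An A run follows the noc3 site and not the bos1 site.

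The gene for RNA polymerase II subunit Rpb2 has a first intron of 38 nt after only 5 codons. Its site at chrI:850726 had 153 nmt1-SEB1 reads and 0 wild-type reads, at least 40.8-fold higher. It took 51.3% of the 298 rpb2 reads in nmt1-SEB1 while wild type had 0 of 101, which leaves room for up to 2.97%. Other sites with no wild-type read were in dpm2, a subunit of dolichol-phosphate mannose synthase (77 reads, at least 20.5-fold), mug64, a BAR domain protein gene (31 reads, at least 8.27-fold), cbc2 of the nuclear cap-binding complex (28 reads, at least 7.47-fold), and prp38 of the spliceosome (24 reads, at least 6.40-fold). The whole dpm2 gene held 111 reads in nmt1-SEB1 against 0 in wild type.

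Several higher sites were also used in wild type. The second intron of spp41, annotated as a transcriptional regulator, had 445 reads against 84 at chrII:3327560, a ratio of 4.24 (3.35 to 5.42), with 24.3% of gene reads against 11.0%. A weaker site 29 nt further on in the same intron had 72 against 11, a ratio of 5.24 (2.76 to 11.0). In swi5, a recombination gene, the second intron had 281 against 109, a ratio of 2.06 (1.65 to 2.60), and 40.3% of gene reads against 24.7%. This swi5 call sits at the 2-fold limit and was lost under both other scalings tried. The AMMECR1 family gene SPAC688.03C had 242 against 9 in its only intron, a ratio of 21.5 (11.1 to 47.6). The site took 83.7% of 289 gene reads in nmt1-SEB1 against 33.3% (18.6 to 52.2) of only 27 in wild type. The RNA polymerase I factor gene rrn7 had 167 against 5, a ratio of 26.7, beside 875 and 7 reads in the exons within 24 nt, so its site is the intronic edge of a larger exonic group.

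Among tested sites with reads in both libraries, the lowest ratio was in gnd1, which encodes 6-phosphogluconate dehydrogenase of the pentose phosphate pathway. Intron 3 of the gene, chrII:230680-231496, is 817 nt long and holds 9 sites, the most of any intron here. The main site, 720 nt from the 5′ splice site at chrII:231399, had 11 nmt1-SEB1 reads and 977 wild-type reads, a ratio of 0.00901 (0.00448 to 0.0162), which is 111-fold lower. It held 14.6% of the wild-type reads at intronic sites. In wild type, 49.3% (47.1 to 51.5) of gnd1 reads ended there, against 0.436% (0.244 to 0.780) in nmt1-SEB1, while the whole gene held 1980 and 2521 reads. The gene is therefore well covered in both libraries, and the difference is in where its reads end. Later sites in the intron were lower too, with 12 against 150 reads at 806 nt and 2 against 52 at 771 nt. Early in the intron the pattern turned: the site at 87 nt had 37 against 11, a ratio of 2.69 (1.34 to 5.85), and the site at 150 nt had 33 against 36. Over all 9 sites the intron had 105 and 1259 reads.

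Lower sites were also found in other introns. The sixth intron of ftp105, annotated as a partner of the ubiquitin protease Ubp5, had 123 reads in nmt1-SEB1 against 398 in wild type at chrI:1788113, 21 nt from the 5′ splice site, a ratio of 0.247 (0.200 to 0.303). It held 91.5% of ftp105 reads in wild type and 65.8% in nmt1-SEB1, so the site was the main polyadenylated end of this gene in both libraries. The fifth intron of nup45, a nucleoporin gene, had 2 against 42 reads, and 0.840% against 43.8% of gene reads. In the uncharacterized SPCC4F11.05 the site had 4 against 138, a ratio of 0.0232 (0.00623 to 0.0607), with only 11 gene reads against 158. The first intron of cpc2, the fission yeast RACK1, had 90 against 327, a ratio of 0.220 (0.172 to 0.279), while its share of the gene's reads, 5.83% against 8.54%, had neither call. A late intron of cox8, a cytochrome c oxidase subunit, had 1 against 20.

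Introns in the 3′ UTR were counted apart. Their 24 sites had 254 nmt1-SEB1 reads and 380 wild-type reads, a ratio of 0.535 (0.454 to 0.628), against 1.36 for the 834 sites in coding introns and 1.25 for the 45 in 5′ UTR introns. The strongest was in sgf11, a subunit of the SAGA deubiquitinating module, with 10 against 159 reads and 11.2% against 50.2% of gene reads. The copper chaperone gene ccs1 had 7 against 92, with 6.73% against 48.4% of gene reads. The ratio of the class rests on these genes: it was 1.05 (0.860 to 1.27) without sgf11 and 2.09 (1.63 to 2.69) without sgf11 and ccs1, a split chosen after seeing the data. In spt20, also of SAGA, both tested sites of a 3′ UTR intron were higher, with 47 against 9 and 42 against 0 reads. Of 8 tested sites in 3′ UTR introns, 2 were higher and 3 lower.

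**Figure D2:**
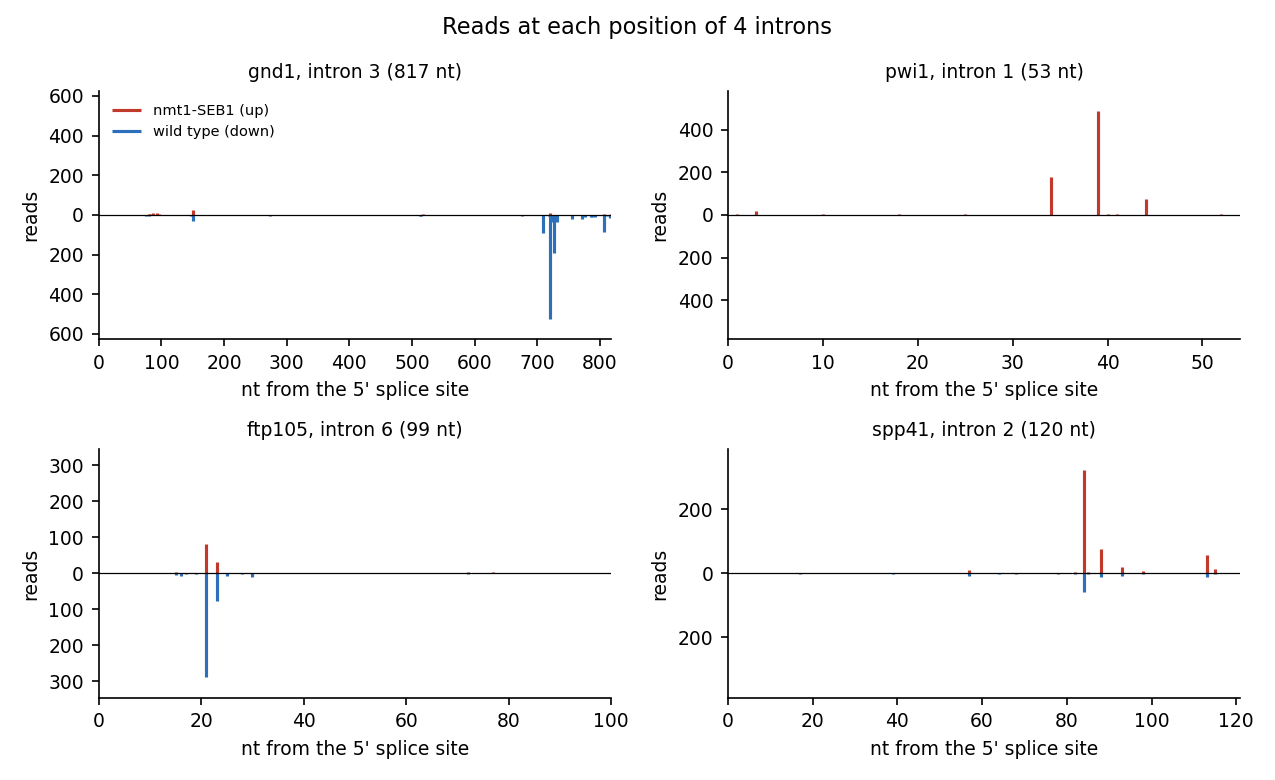
Reads at each position of 4 introns, with distance from the 5′ splice site in nt on the x axis and reads on the y axis, nmt1-SEB1 drawn up and wild type drawn down. The main gnd1 site at 720 nt has 977 wild-type reads against 11, the pwi1 site has 751 nmt1-SEB1 reads against 2, and the ftp105 and spp41 sites have reads in both libraries.

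A further set was chosen after the values were seen, to show sites that moved while their gene kept reads in both libraries. Intron 5 of osh41, an oxysterol-binding protein gene with 216 reads in nmt1-SEB1 against 221 in wild type, had a site with 109 against 31 reads, so 50.5% of its reads ended in that intron in nmt1-SEB1 and 14.0% in wild type. In get1, a gene of the GET complex for tail-anchored membrane proteins, 61 against 5 reads were 35.5% and 3.16% of the gene. The signal peptidase gene spc3 had 45 against 5, or 35.7% against 3.38%, and the ubiquitin ligase gene pub3 had 46 against 17, or 22.5% against 3.42%. These genes sent a larger part of their 3′ ends into an intron in the nmt1-SEB1 library.

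The opposite was seen in other genes of that set. The 5′ UTR intron of atf1, which encodes a stress-response transcription factor, had a site 20 nt from its 5′ splice site with 12 against 53 reads, or 2.98% against 35.6% of gene reads. In pgc1, a phosphodiesterase gene, 13 against 53 reads were 5.58% and 38.7%. The copper chaperone gene atx1 had 16 against 59, or 1.37% against 11.6%, and the peroxisomal import receptor gene pex7 had 3 against 40, or 0.310% against 4.21%. In sds21, a protein phosphatase gene, intron 2 had a site with 0 against 29 reads, or 0 of 493 gene reads, which leaves room for up to 0.609%, against 4.29%, and another with 13 against 39, or 2.64% against 5.77%. At these sites the intronic ends were a smaller part of the gene's reads in nmt1-SEB1.

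Short first introns gave further sites with few wild-type reads. The AP-2 adaptor gene apl1 had 71 against 1, the clathrin heavy chain gene chc1 had 60 against 1, and the cytidine deaminase gene cdd1 had 108 against 3. The exons within 24 nt of the cdd1 site held 490 and 20 reads, so it is the intronic edge of a larger exonic group. Its share of gene reads, 11.7% against 4.92%, had neither call. In tho3, of the THO complex that couples transcription to mRNA export, the first intron had 90 against 0 reads, at least 24-fold higher, and the gene as a whole had 151 against 4. The second intron of atp14, an ATP synthase subunit gene, had 55 against 1. The uncharacterized SPAP27G11.11C had 31 against 2 reads, and its gene had 33 against 3. An A run follows the apl1 and cdd1 sites. The chc1 site lies 2 nt and the tho3 site 2 nt before the next exon.

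Some strong sites had neither call. The second intron of adf1, the actin-severing protein cofilin, had 219 reads in nmt1-SEB1 against 230 in wild type, a ratio of 0.762 (0.630 to 0.920), and 4.81% against 6.89% of gene reads. The first intron of rps3, a ribosomal protein gene, had 127 against 61, a ratio of 1.67 (1.22 to 2.30). The only intron of mus81, a DNA junction endonuclease, had 28 against 23 reads, of 45 and 35 gene reads. These were 62.2% (Wilson interval 47.6 to 74.9) and 65.7% (49.2 to 79.2). In mmp2, which encodes a peptidase, the site had 51 against 29 and a lower share, 35.7% against 78.4%. The mitochondrial import gene tom20 had 20 against 52, which was lower in level, with 42.6% against 59.1% of gene reads and neither call by share. Sites can thus take most of a gene's reads in both libraries, as in ftp105. The mus81 shares were large too, but their intervals reach down to 47.6% and 49.2%.

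The same intron could hold sites of both directions. The 514 nt intron of bdf2, a bromodomain gene, had 7 sites with 55 and 43 reads in all, and of 3 tested sites 2 were higher and 1 lower. The bdf2 sites 56 and 461 nt from the 5′ splice site had 18 against 3 and 19 against 2 reads, and the site at 402 nt had 4 against 21. The 443 nt intron of SPAC27E2.03C had 6 sites with 84 and 29 reads, and 2 of 3 tested sites were higher. In seb1 itself, 1 site 37 nt into the first intron had 9 wild-type reads and 1 nmt1-SEB1 read, too few for a call.

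Within introns, sites lay toward the 3′ end. The median site was 54 nt from the 5′ splice site and 40 nt from the next exon, at 60.6% of the intron's length. Introns with a site were longer, with a median of 84.5 nt against 54 nt for introns with none. They also belonged to genes with more reads, with a median of 307 against 201 reads over both libraries. The share of introns with a site was 8.37% up to 60 nt, 12.6% from 61 to 100 nt, 23.6% from 101 to 200 nt and 43.2% above 200 nt. Per length the difference was smaller, with 1.82, 1.91, 2.09 and 2.66 sites per kb in these classes. First introns made up 53.5% of introns with a site and 46.0% of the others.

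Summed site reads also differed by length class. Introns up to 60 nt had 1054 RPM in nmt1-SEB1 against 399 in wild type, and those above 200 nt had 686 and 996. Without gnd1 and pwi1 these were 823 and 398, and 655 and 529, so the direction in long introns rests on gnd1. Of tested sites in introns up to 60 nt, 26 of 44 were higher and 8 lower, and above 200 nt 22 of 56 were higher and 16 lower.

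**Figure D3:**
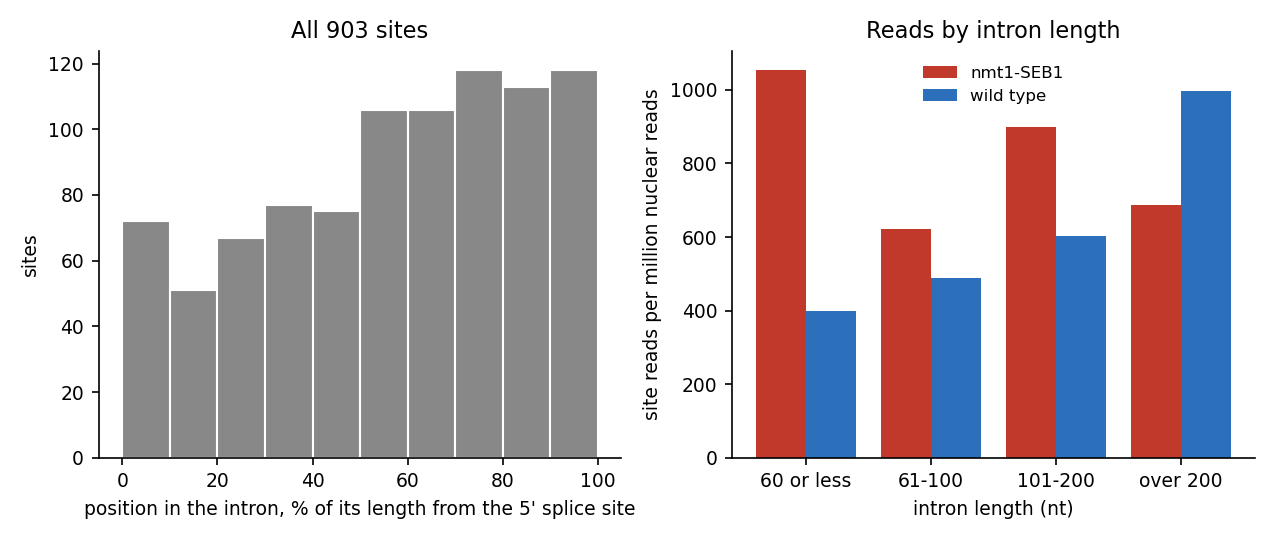
The left panel counts the 903 sites by their position in the intron, in percent of intron length from the 5′ splice site, and the right panel gives summed site reads in RPM by intron length for each library. Sites are more frequent in the later part of introns, and the class above 200 nt is the only one where wild type is higher, 996 against 686.

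Splice signals were found at similar shares in introns with and without a site. The 5′ splice site began GTATGT in 20.6% of introns with a site and in 19.6% of those without. A branch motif, CTAAC or its form CTGAC, each also counted with a final T, was found in 74.7% and 76.3%. In introns with such a motif, 91 of 702 sites (13.0%) lay after the last one, and 9.03% of the bases of these introns do. In coding introns, an in-frame stop codon lay between the 5′ splice site and the site at 655 of 834 sites (78.5%), and 85.8% of all coding introns hold an in-frame stop. The median site left 17.9% of the protein's codons before its intron.

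Sequence around the sites was searched on the transcribed strand for AATAAA or AATGAA, forms of the poly(A) signal, in the 50 nt before, and for TGTA and GTA in the 100 nt after; each TGTA also holds a GTA. A signal was present at 18.7% of intronic sites, 19.4% of clusters in coding sequence, 18.8% of clusters past the stop codon and 6.78% of midpoints of introns with no site. TGTA followed 40.3% of intronic sites, 38.5% of clusters in coding sequence, 53.8% of clusters past the stop codon and 35.4% of intron midpoints. GTA followed 76.0%, 77.9%, 84.8% and 71.1% in the same order. By these counts, which were not tested against each other, the signal share was close to that of the other clusters, and the TGTA share was closest to that of coding sequence. The 100 nt after an intronic site often ran into the next exon, a median of 40 nt away. The TGTA and GTA shares therefore do not describe intron sequence alone. Windows around midpoints often reached into exons on both sides, as introns with no site had a median length of 54 nt. At midpoints of the 752 introns of 100 nt or more with no site, the signal share was 7.98%, TGTA 37.9% and GTA 66.5%.

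The motif shares differed between called sites. TGTA followed 25 of 81 higher sites (30.9%), 27 of 59 sites with neither call (45.8%) and 23 of 36 lower sites (63.9%). By share of host reads the values were 31.9% of 144 higher and 63.5% of 96 lower sites. GTA followed 64.2% of higher and 91.7% of lower sites. The signal preceded 27.2% of higher sites, 28.8% of those with neither call and 11.1% of lower sites, the last being 4 sites. By share of host reads it preceded 21.5% of higher and 17.7% of lower sites. All nuclear clusters showed the same order for each motif. TGTA followed 48.2% of higher, 56.0% of neither and 66.0% of lower clusters. GTA followed 83.6%, 86.2% and 93.1% of them, and the signal preceded 27.0%, 29.0% and 16.6%. These orders are thus not particular to introns. The next exon lay a median of 35 nt after higher and 62 nt after lower intronic sites, and the part of this in the shares was not tested. A match is a description of letters in these windows and not a measured binding site.

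**Figure D4:**
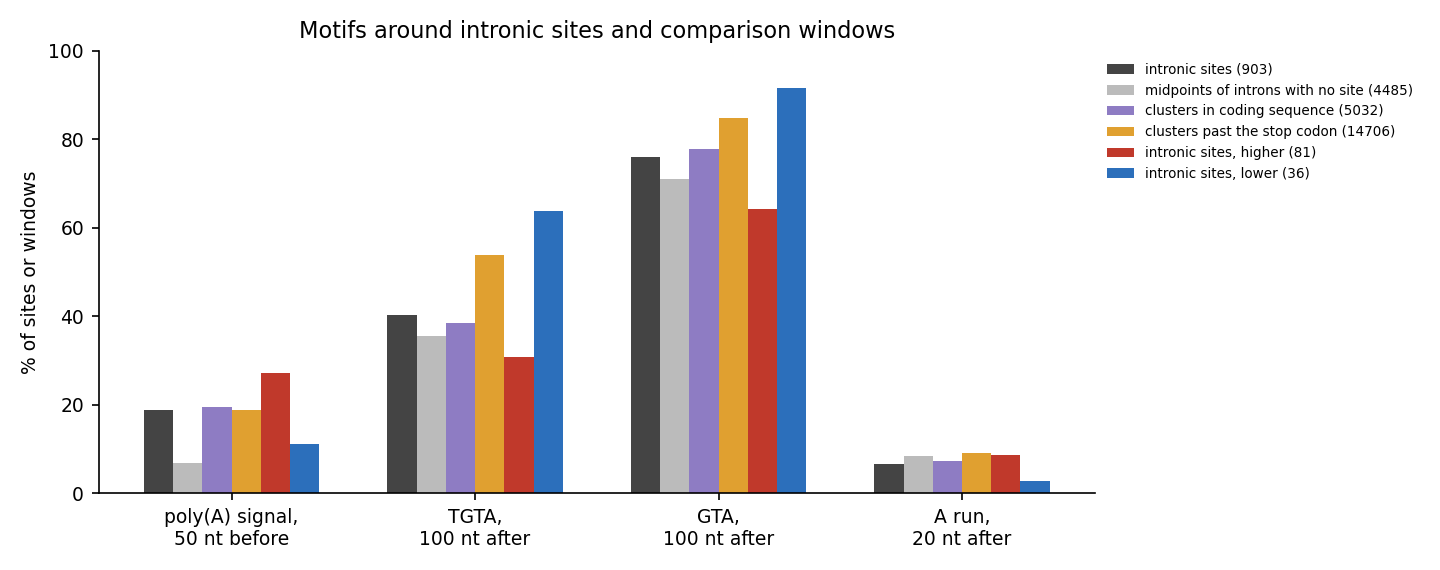
Bars give the percent of sites or windows with each motif, for intronic sites, midpoints of introns with no site, clusters in coding sequence, clusters past the stop codon, and intronic sites higher or lower in nmt1-SEB1. TGTA follows 30.9% of higher and 63.9% of lower intronic sites, and the signal precedes 18.7% of intronic sites against 6.78% of midpoints.

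Many higher sites lay a short way past the end of another gene on the same strand. This grouping was chosen after the values were seen, and the difference between its classes was not tested. Of 68 tested sites within 1000 nt past an upstream coding gene, 44 were higher and 6 lower, with a median log2 ratio of 2.73. Of the 108 others, 37 were higher and 30 lower, with a median of 0.34. The median distance was 808 nt for higher sites, 1780 nt for those with neither call and 3100 nt for lower sites. Over all sites 34.4% lay within 1000 nt. By share of host reads, 65 of 288 sites within 1000 nt were higher and 22 lower, and of the 536 others 79 were higher and 74 lower.

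Reads in the gap between the genes were higher in nmt1-SEB1 for most hosts, whatever the call of the site. The gap took in all reads on the strand between the coding genes, also those at any non-coding gene there. Over all hosts with 20 or more gap reads, the gap was at least 2-fold higher in 38 of 53 hosts of higher sites, 23 of 25 hosts of lower sites and 34 of 45 hosts of sites with neither call. The gaps of all other genes were not set beside these, so the counts cannot be read as particular to hosts of intronic sites. Among hosts of higher sites with a gap of at most 1000 nt and 20 or more gap reads, the gap was at least 2-fold higher in 24 of 32 and lower in 1. It was also higher in 4 of 5 such hosts of lower sites and 12 of 17 hosts of sites with neither call. The gap of 376 nt between rps802, a ribosomal protein gene, and rpb2 held 1766 nmt1-SEB1 reads and 17 wild-type reads. Before dpm2, past rps402, the gap held 1115 and 15. For prp38, past the fructose-bisphosphate aldolase gene fba1, it held 14982 and 30. SPAC688.03C follows gst3 with 873 and 3 gap reads, and chc1, the clathrin heavy chain gene, follows rpl2002 with 410 and 3. The gaps before noc3 and bos1 differed less, as noc3 had 176 and 218 gap reads past lub1 and bos1 had 138 and 108 past tos4. Transcripts that start at the upstream gene and those that start at the host gene cannot be told apart in these 3′ end reads.

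**Figure D5:**
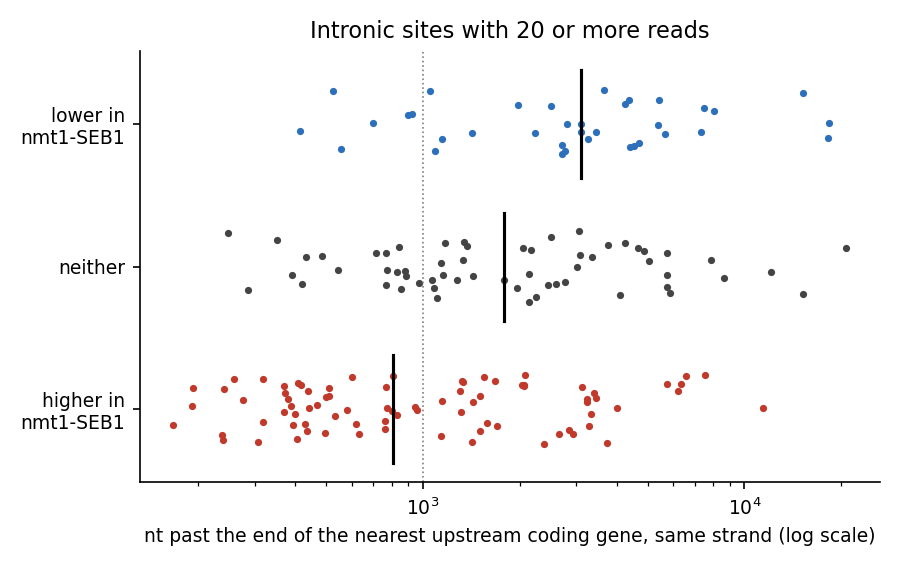
Each point is 1 of the intronic sites with 20 or more reads and an upstream coding gene on the strand, with its distance past that gene's end in nt on a log scale and its call in nmt1-SEB1 on the y axis, black bars marking medians. Higher sites have a median of 808 nt and lower sites of 3100 nt, and the dotted line marks 1000 nt.

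Host genes were also grouped by function, from symbols. Over all genes, 629 of 2446 eligible genes (25.7%) had a site, and over all intronic sites 46.0% of those tested were higher and 20.5% lower by level, and 17.5% and 11.7% by share. The lists hold few tested sites to read against these shares. Of 67 ribosomal protein genes 14 had one (20.9%), and of their 3 tested sites 1 was higher and none lower; by share, 6 of 22 were higher and none lower. The higher one was in rps1701, with 37 reads in nmt1-SEB1 against 8 in wild type, a ratio of 3.70 (1.70 to 9.20), though the gene as a whole held 4056 and 9467. In rpl2501 the site had 15 against 5, a ratio of 2.40 (0.829 to 8.44), with a higher share, 0.612% against 0.184%. Of 71 genes in the splicing list 18 had a site (25.4%), and of 5 tested sites 3 were higher, 2 of them in spp41, which its symbol placed there, and 1 in prp38. The U1 snRNP gene usp102 had the lower one, with 13 against 27, and prp39, also of the U1 snRNP, had 41 against 31 with a higher share, 30.6% against 12.2%. A cleavage factor subunit gene, msi2, held the 3 tested sites of the cleavage and polyadenylation list in intron 3, with 77 against 47, 6 against 17 and 16 against 9 reads, of which the second was lower. Genes of RNA polymerase II had 1 higher site, in rpb2, and 1 lower, in rpb10, with 13 against 33 reads. Of 62 meiotic genes 8 had a site (12.9%), with 1 tested, in mug64 and higher. Of 21 surveillance genes 4 had a site, with 1 tested, in cbc2 and higher, and of 17 translation factor genes 3 had a site, none tested.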

How the data were processed

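The deposited files give counts: per the authors' files, whole numbers of poly(A) site-supporting reads ending at each position and strand, not normalized. Alignment used Bowtie2 and ASM294v2, per the submitters' processing notes; its version and the filters on reads: not given in the sources used here. Introns and sequences come from RefSeq ASM294v3; in each of 127 windows of 100000 nt, the base at the deposited position was A for at least 62.5% of positions. The 12 introns that hold a snoRNA were left out. Positions were gathered greedily from the strongest, within 24 nt. Counts were scaled to nuclear reads. Ratio intervals are exact conditional binomial, shares have Wilson intervals, and host shares use exact conditional odds ratios (scipy 1.17.1, Python 3.11.15). The floor for a library at 0 is 3 reads. Calls were tested on Poisson counts simulated for the real clusters, which hold no variation between libraries beyond counting error. Clustering was checked on a short made-up example. Alternatives changed the clustering distance, read minimum, scaling (TMM with edgeR 4.0.16 in R 4.3.3, median-of-ratios), depth, windows and A runs. Sites were named by rule: the strongest, those with the highest and lowest ratio, the largest host shares, the introns with the most sites, and list genes; the gap examples, the further sets described as such, and the A run and upstream splits were picked after their values were seen. One named site is not reported here. Members and lists were chosen with earlier results of these data known.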

Additional observations from a re-analysis of the deposited data

Results flagged for a closer look

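Reads outside the sites were set beside them, in regions the definition leaves out. The 12 introns that hold a snoRNA had 463 nmt1-SEB1 reads and 219 wild-type reads on the sense strand, a ratio of 1.69 (1.44 to 1.995). The antisense strand of the eligible introns had 34782 and 6681 reads, a ratio of 4.16 (4.06 to 4.28). On the sense strand, with no read minimum, they had 12101 and 7169 reads, a ratio of 1.35, beside the 1.31 of the sites. In 3 eligible introns, stretches under another gene on the same strand had 23 and 6 reads, a ratio of 3.07 (1.21 to 9.21).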

How the results depend on the processing

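Of 151 values of the main results under alternatives, 129 stayed close to the value given and 22 moved, and none changed direction. A minimum of 10 reads gave 308 sites, a ratio of the shares of 1.26, 61 sites with a lower share and a poly(A) signal at 22.1%; no minimum gave 2127 sites, a median of 48 nt from the 5′ splice site and a signal at 14.7%. The ratio was 1.27 without positions under 5 nt from an intron edge, 1.14 without positions before an A run (then at 0% of sites), 1.36 in coding introns alone, 1.60 without gnd1 and 1.22 without pwi1. Testing from 50 reads called 29 sites higher and 16 lower, testing from 10 reads called 127 and 55, and a 4-fold limit called 22 lower. A 50 nt window held TGTA at 26.1% and GTA at 53.3% of sites. Without sites within 1000 nt past an upstream gene, 37 sites were higher in level and 79 in share. The alternatives on A runs that end at the position, on gnd1, on pwi1 and on upstream genes were chosen after seeing the data. TMM and median-of-ratios scaling shifted all log2 ratios by -0.16 and -0.19, and each ended 1 call among the named sites, swi5. Of 689 values of 41 named sites, 22 lost and 2 gained a call. A further 5 changed the sign of the log2 ratio at sites with no call in either setting, and no value with a call reversed. For mug64 without edge positions no value was left. No paired analysis was possible because each group has 1 library. Depth limits the 727 sites under 20 reads.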
